A study of Mus musculus with 6 samples.

Results

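The genes described here are 9 components of the transforming growth factor beta (TGF-β) pathway, chosen by name from the 55487 genes of the count table: the ligand genes Tgfb1, Tgfb2 and Tgfb3, the receptor genes Tgfbr1 and Tgfbr2, the transcription factor gene Smad3, and the response genes Smad7, Skil and Tgfbi. They were measured by polyA RNA sequencing in B16F10 cells, a mouse melanoma line, to ask how the transcriptome differs when the tRNA-modifying enzyme OSGEP is depleted. The control cells (shCtr, n = 3) carried a scramble shRNA, and the depleted cells (shOSGEP, n = 3) carried the shRNA numbered 2 against OSGEP. The labels give the genotype of shCtr as WT and that of shOSGEP as KD OSGEP, a knockdown and not a deletion. Both groups were infected with lentivirus, selected with puromycin and grown in medium with 10% FBS, and no treatment with TGF-β is described for either. Each library came from its own infection, so the groups are pools of infected cells of 1 line and depletion rests on a single hairpin.

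TGF-β is secreted as a latent complex that must be released before it can bind its receptors. The active ligand brings together the type II receptor TGFBR2 and the type I receptor TGFBR1, which phosphorylates SMAD2 and SMAD3, and these enter the nucleus with SMAD4 to regulate transcription. Among the targets are the pathway's own inhibitors, which close a negative feedback loop, and genes of the extracellular matrix and the contractile cytoskeleton. In melanoma, tumour cells both secrete TGF-β and respond to it, and the ligand is known to restrain T cells around the tumour.

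Values are given as counts scaled to library size (CPM, after TMM scaling of the library size), always in the order of replicates 1, 2 and 3. The libraries held from 18915587 to 29487384 counts, so that 3 counts, taken as the floor of detection, correspond to 0.116 to 0.147 CPM. A group difference is a log2 fold change (Log2FC) of shOSGEP against shCtr from edgeR's quasi-likelihood test, positive when shOSGEP is higher. A gene is said to pass the study threshold when its unadjusted p is under 0.05 and its Log2FC is above 0.5 or below -0.5, the limits given in the methods of the study. Osgep, the targeted gene, was at 20.6, 58.6 and 21.8 CPM in shCtr against 4.28, 0.542 and 5.52 CPM in shOSGEP, so every library followed its label. All 8 melanocyte markers examined were detected in every library. Their summed level was 17800, 30000 and 17100 CPM in shCtr and 18100, 3590 and 15500 CPM in shOSGEP, lowest in shOSGEP replicate 2. In such bulk RNA, fewer cells of a type and less RNA per cell cannot be told apart. The 6 leukocyte, 5 endothelial and 6 epithelial markers summed to at most 0.504 CPM in any library. Of 7 fibroblast markers, Dcn and Thy1 had no count and the summed level was 0.688 to 2.72 CPM in shCtr and 1.78 to 4.18 CPM in shOSGEP, most of it from Pdgfra.

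Of the 9 genes, 7 were expressed highly enough to be tested, and Tgfb1 and Tgfbi were not. At an adjusted p under 0.05 edgeR called 0 of the 7, against 0 of 12669 tested genes (0.00%). Even the targeted gene Osgep, with a Log2FC of -3.29 (unadjusted p = 0.00524), was not called, so a lack of calls does not show a lack of change. DESeq2 called 0 of the 7 as well, against 0.113% of the genes to which it gave an adjusted p. It did call Osgep (adjusted p = 0.0386). At the study threshold 1 of the 7 passed, Tgfb3, which was higher in shOSGEP. Among all tested genes 2.02% passed, 1.59% being higher and 0.426% lower in shOSGEP. None of the 7 had groups that were separate from each other, which for all tested genes was seen in 3.49% with shOSGEP higher and in 2.87% with shOSGEP lower. The median Log2FC of the 7 was 0.25, with 4 genes above 0 and 3 below. The median of all tested genes was -0.03, and 47.3% of them were above 0.

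**Figure D1:**
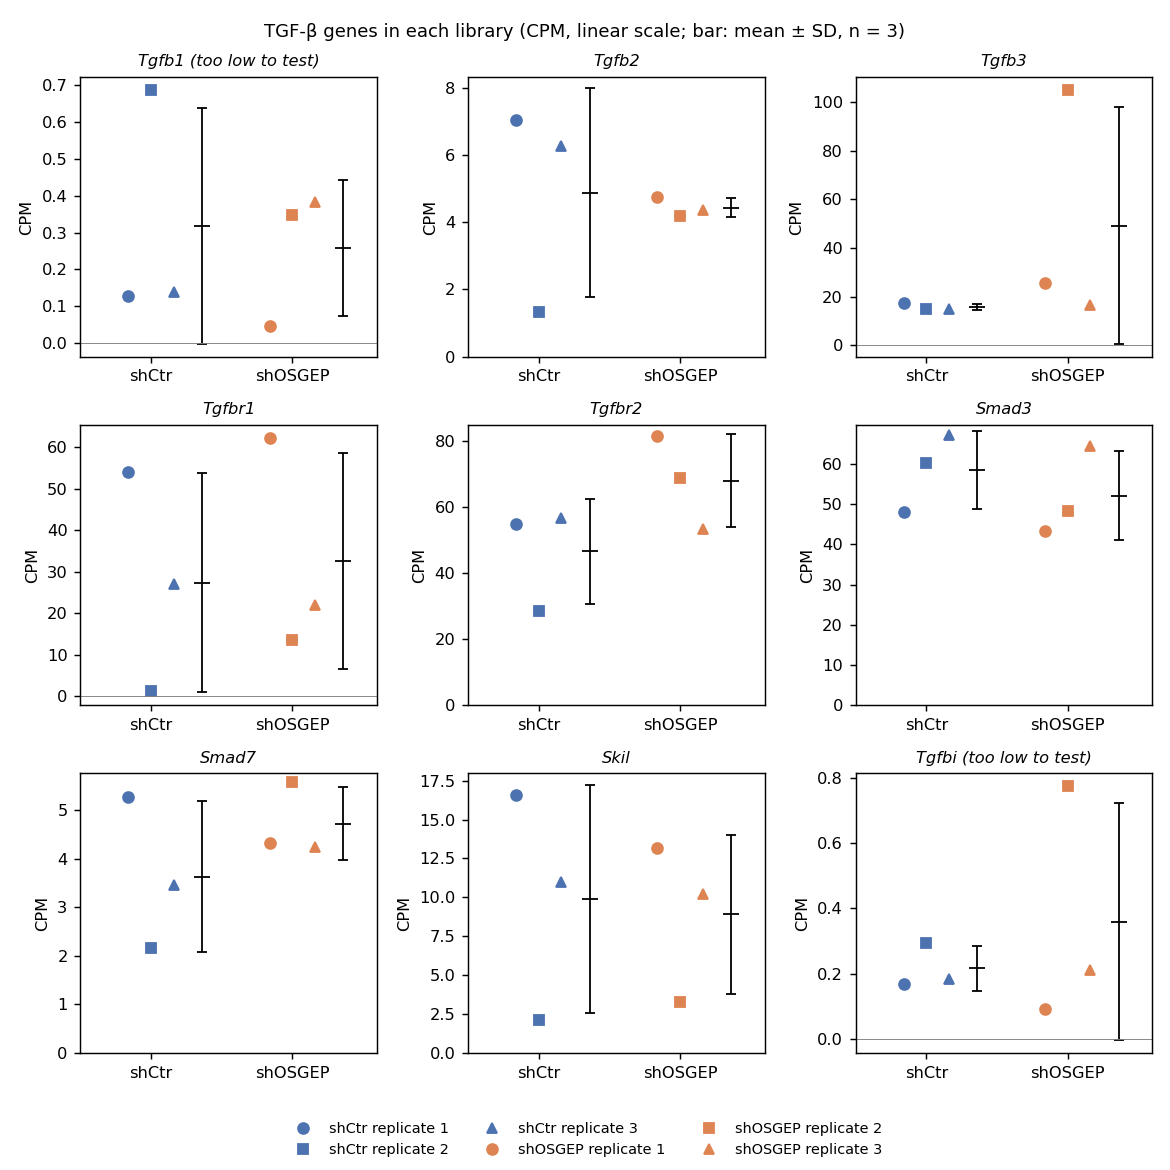
Level of each of the 9 TGF-β genes in the 6 libraries, in CPM on a linear axis. Points are libraries (circle, square and triangle for replicates 1, 2 and 3) and the black bar beside each group is the mean ± SD (n = 3), drawn below 0 where the SD exceeds the mean. The Tgfb3 panel shows shOSGEP replicate 2 at 105 CPM and the other 5 libraries at 14.8 to 25.8 CPM, and the Tgfbr1 panel shows shCtr replicate 2 at 1.28 CPM.

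Tgfb3 encodes TGF-β3 and was the most abundant ligand transcript in all 6 libraries. It lies at chr12:86056745-86079041 on the minus strand (GRCm38). Its level was 17.2, 15.1 and 14.8 CPM in shCtr (405, 307 and 322 counts) and 25.8, 105 and 16.6 CPM in shOSGEP (554, 2715 and 392 counts). The 3 shCtr libraries were close together, shOSGEP replicate 2 stood far above every other library, and shOSGEP replicate 3 fell inside the shCtr range. The means were 15.7 ± 1.30 CPM and 49.2 ± 48.7 CPM (SD, n = 3), and the Log2FC was 1.65 (SE 0.697), a 3.13-fold difference. The unadjusted p was 0.0448, and after adjustment over all genes it was 1.00. Between libraries of the same replicate number the log2 ratio of shOSGEP to shCtr was 0.58, 2.80 and 0.16, higher in 3 of 3. Among all tested genes 17.6% were higher in all 3 replicate numbers. By exact permutation of log2 CPM the two-sided p was 0.2, where 3 libraries against 3 cannot go below 0.1.

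The size of the Tgfb3 difference rested on shOSGEP replicate 2. Without that library the Log2FC was 0.44 (unadjusted p = 0.328), and without both libraries of replicate 2 it was 0.40 (unadjusted p = 0.259). With the replicate number as a block the Log2FC was 1.15 and the unadjusted p 0.107, so that Tgfb3 no longer passed the study threshold. Leaving out shCtr replicate 1, 2 or 3 kept the Log2FC at 1.71, 1.62 and 1.61 but also ended the pass, with unadjusted p of 0.0719, 0.0685 and 0.106. Tgfb3 passed the study threshold in 10 of 19 alternatives. The library shOSGEP replicate 2 had the lowest summed melanocyte markers (3590 CPM) and the lowest Osgep (0.542 CPM), and their part in the Tgfb3 level was not tested. With limma-voom, sample quality weights and the replicate block, Tgfb3 reached an adjusted p of 0.0215 (Log2FC 0.51) and Tgfbr2 an adjusted p of 0.0488 (Log2FC 0.40). Past the study threshold in this fit were Tgfb3, higher in shOSGEP, and Tgfb2, lower in shOSGEP. That fit called 11.1% of all tested genes, gave the replicate 2 libraries weights of 0.112 and 0.113 against 1.91 to 4.60 for the others, and had 2 residual degrees of freedom beside 903 drawn from the spread pooled over genes.

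The span of Tgfb3 overlaps that of Ttll5, a protein-coding gene on the opposite strand, and the library kit is not stated to keep the strand. The exons of the genes share 0 bases. Ttll5 was at 13.6 CPM in shOSGEP replicate 2 and at 20.8 to 29.2 CPM in the other 5 libraries, lowest where Tgfb3 was highest. Of the Tgfb3 exon bases, 7.6% overlap Gm48008 and 4.82% overlap Gm37804, both on the opposite strand, to which the deposited counts assigned at most 0.0387 CPM.

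Tgfb2 encodes TGF-β2 and lies at chr1:186622792-186705989 on the minus strand. Its level was 7.05, 1.33 and 6.27 CPM in shCtr (166, 27 and 136 counts) against 4.75, 4.18 and 4.37 CPM in shOSGEP (102, 108 and 103 counts). The shOSGEP libraries agreed closely and all lay inside the wide shCtr range, whose low end was shCtr replicate 2. The Log2FC was -0.14 (SE 0.656, unadjusted p = 0.836). Its sign depended on the libraries used. Within replicates 1 and 3 the log2 ratios were -0.57 and -0.52, within replicate 2 the log2 ratio was 1.64, and with the replicate block the Log2FC was 0.13. In the limma-voom fit with quality weights and the block, Tgfb2 passed the study threshold with shOSGEP lower. It was not called at an adjusted p under 0.05 there.

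Tgfb1 encodes TGF-β1, the ligand most often linked to immune regulation, and lies at chr7:25687002-25705077 on the plus strand. It was close to the floor, with 3, 14 and 3 counts in shCtr (0.127, 0.688 and 0.138 CPM) and 1, 9 and 9 counts in shOSGEP (0.0465, 0.349 and 0.382 CPM). The groups overlapped, and the counts were too low for a test. RefSeq's promoter table holds Tgfb1 and Tgfb2 among the ligand genes, and the 250 bases before each start are shown to set the nearly silent ligand beside an expressed one (GRCm38.p6, 5′ to 3′ on the strand of the gene, chr7:25686752-25687001 for Tgfb1 and chr1:186705990-186706239 for Tgfb2). Capitals mark matches on either strand to the SMAD-binding element CAGAC, the TATA box TATAAA, the E-box CACGTG and the cyclic AMP response element TGACGTCA.
Tgfb1: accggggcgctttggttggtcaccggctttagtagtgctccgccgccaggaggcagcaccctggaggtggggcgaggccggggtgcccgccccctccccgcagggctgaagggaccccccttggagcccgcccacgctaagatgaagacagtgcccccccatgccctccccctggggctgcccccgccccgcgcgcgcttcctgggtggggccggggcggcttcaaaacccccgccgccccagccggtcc
Tgfb2: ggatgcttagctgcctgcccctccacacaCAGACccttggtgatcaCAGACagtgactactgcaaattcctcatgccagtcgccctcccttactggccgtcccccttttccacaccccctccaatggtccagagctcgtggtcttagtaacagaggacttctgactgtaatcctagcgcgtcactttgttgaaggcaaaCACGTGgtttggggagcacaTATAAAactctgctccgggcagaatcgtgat

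The Tgfb1 stretch is 75.2% G or C and holds none of the 4 motifs. The Tgfb2 stretch is 53.6% G or C and holds CAGAC at 2 places, 221 to 217 and 204 to 200 bases before the start, CACGTG at 51 to 46 bases and TATAAA at 31 to 26 bases. Of the 32851 promoters in the table, 42.2% hold CAGAC in the same window, 12.4% TATAAA, 6.02% CACGTG and 1.55% TGACGTCA. A match is a description of the letters and shows no binding. The table matched 6 of the 9 genes, the others being Tgfb3, Smad7 and Skil.

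Set on a common scale per kb of exon, the ligand transcripts summed to 6.33, 4.83 and 5.50 CPM per kb in shCtr and to 8.45, 31.9 and 5.75 CPM per kb in shOSGEP. Tgfb3 made up 80.4%, 92.4% and 79.8% of this sum in shCtr and 90.2%, 97.5% and 85.6% in shOSGEP. The share of Tgfb2 was 19.2%, 4.75% and 19.7% in shCtr and 9.70%, 2.27% and 13.1% in shOSGEP. Within each replicate number Tgfb3 thus took a larger share, and Tgfb2 a smaller one, in shOSGEP, and in both groups replicate 2 was the most one-sided library. Over the groups the ranges overlapped, with mean shares of Tgfb3 of 84.2% ± 7.13 and 91.1% ± 6.03 (SD, n = 3), and the two-sided p by exact permutation was 0.3 (0.45 adjusted over the 3 ligands). The share of Tgfb1 stayed between 0.109% and 2.83%, with p = 0.5 by the same exact test.

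**Figure D2:**
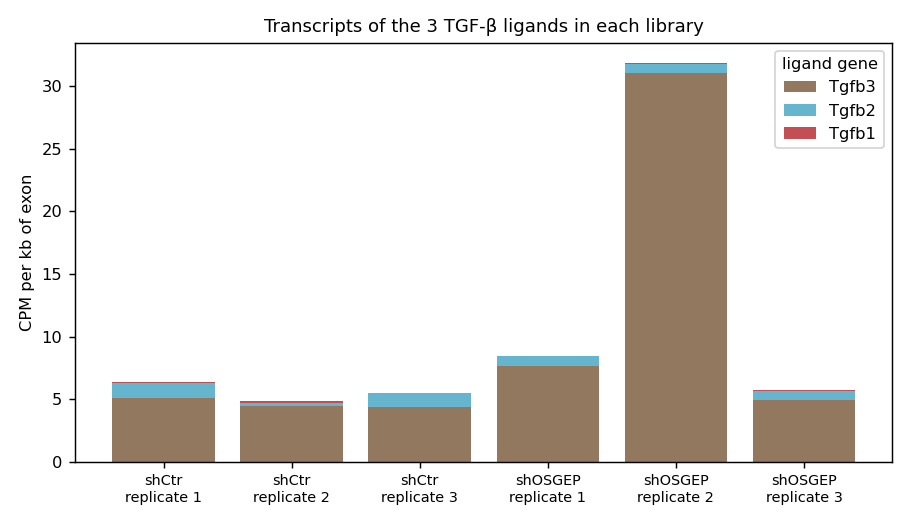
Stacked bars of the 3 TGF-β ligand transcripts in each of the 6 libraries, in CPM per kb of exon (linear axis from 0). Tgfb3 fills most of every bar, and the bar of shOSGEP replicate 2 reaches 31.9 CPM per kb against 4.83 to 8.45 in the other libraries.

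Tgfbr2 encodes the type II receptor that binds the ligand first. The gene lies at chr9:116084293-116175360 on the minus strand. Its level was 54.8, 28.3 and 56.5 CPM in shCtr against 81.5, 68.7 and 53.4 CPM in shOSGEP. Replicates 1 and 2 of shOSGEP were above all shCtr libraries, but replicate 3 was not. The Log2FC was 0.55 (SE 0.438, unadjusted p = 0.247, adjusted p = 1.00), and the log2 ratios within replicate numbers were 0.57, 1.28 and -0.08.

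Tgfbr1 encodes the type I receptor kinase that passes the signal to the SMADs, and lies at chr4:47353222-47414931 on the plus strand. It varied more between libraries than any other of the 9 genes. Its level was 54.0, 1.28 and 27.0 CPM in shCtr (1271, 26 and 586 counts) and 62.2, 13.6 and 22.0 CPM in shOSGEP (1337, 352 and 519 counts), a 48.7-fold span from the lowest to the highest library. In both groups replicate 1 was highest and replicate 2 lowest. The Log2FC of 0.25 (SE 1.06, unadjusted p = 0.821) therefore carried the widest error of the 7 tested genes, and without shCtr replicate 2 it was -0.32. The ratio of Tgfbr2 to Tgfbr1 per kb of exon was 0.809, 17.7 and 1.67 in shCtr and 1.05, 4.02 and 1.94 in shOSGEP. On the log2 scale the mean of shOSGEP minus that of shCtr was -0.517, with p = 0.9 in the exact permutation test (two-sided), and this difference was 0.791 without shCtr replicate 2.

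Smad3 encodes the receptor-activated transcription factor of the pathway, and lies at chr9:63646767-63757994 on the minus strand. It was the steadiest of the 9 genes, at 48.1, 60.4 and 67.2 CPM in shCtr and 43.3, 48.4 and 64.6 CPM in shOSGEP. The spread within each group was larger than the difference between the groups. The Log2FC was -0.17 (SE 0.392, unadjusted p = 0.677), and the log2 ratios within replicate numbers were -0.15, -0.32 and -0.06, lower in 3 of 3. Among all tested genes 17.2% were lower in all 3 replicate numbers.

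Smad7 and Skil are direct targets of SMAD3 whose products inhibit the pathway, SMAD7 at the receptor and SnoN, encoded by Skil, on the SMAD complex. Smad7 was at 5.27, 2.16 and 3.46 CPM in shCtr against 4.33, 5.58 and 4.24 CPM in shOSGEP. The highest and the lowest library both belonged to replicate 2, and the groups overlapped. The Log2FC was 0.38 (SE 0.531, unadjusted p = 0.497), and without both libraries of replicate 2 it was -0.02. Skil, at chr3:31095058-31122577 on the plus strand, was at 16.6, 2.11 and 11.0 CPM in shCtr against 13.2, 3.29 and 10.2 CPM in shOSGEP. Both replicate 2 libraries were low, the other 4 lay between 10.2 and 16.6 CPM, and the Log2FC was -0.15 (SE 0.794, unadjusted p = 0.852).

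Tgfbi encodes a secreted matrix protein that was first isolated as a TGF-β-induced gene, and lies at chr13:56609523-56639562 on the plus strand. It had 4, 6 and 4 counts in shCtr and 2, 20 and 5 counts in shOSGEP, which is 0.170, 0.295 and 0.184 CPM and 0.093, 0.775 and 0.212 CPM. It stayed below 1 CPM everywhere, was highest in shOSGEP replicate 2 and was not tested.

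**Figure D3:**
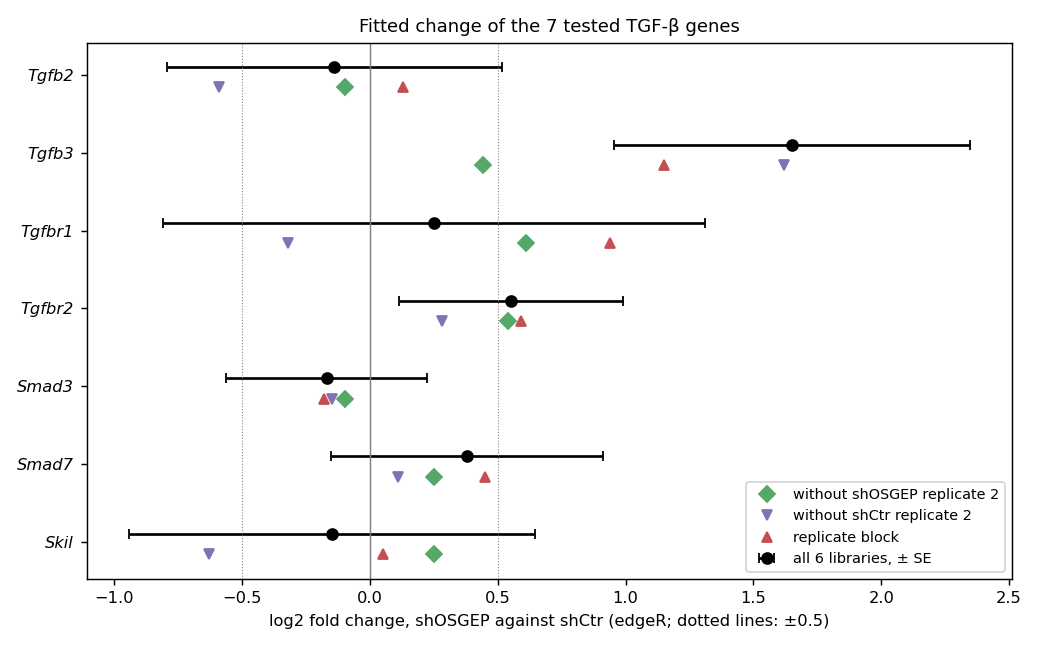
Log2FC of shOSGEP against shCtr for the 7 tested TGF-β genes from edgeR. Black points are the fit of all 6 libraries with its SE, coloured symbols the fits without shOSGEP replicate 2, without shCtr replicate 2 and with the replicate block, and dotted lines a Log2FC of 0.5 in either direction. Tgfb3 moves from 1.65 to 0.44 without shOSGEP replicate 2, Tgfbr1 changes sign without shCtr replicate 2, and Smad3 stays between -0.18 and -0.10.

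Compared per kb of exon in shCtr, the mean levels ran from Smad3 (10.6 CPM per kb) through Tgfbr2 (5.68), Tgfb3 (4.65), Tgfbr1 (4.20), Skil (1.02), Tgfb2 (0.843) and Smad7 (0.803) to Tgfb1 (0.0631) and Tgfbi (0.0574). The libraries of neighbouring genes overlapped at every step of this order, except between Smad3 and Tgfbr2 and between Smad7 and Tgfb1. In shOSGEP the order opened with Tgfb3 (14.5 CPM per kb), Smad3 (9.40), Tgfbr2 (8.29) and Tgfbr1 (4.99), and the libraries of these 3 steps overlapped at each. The first place of Tgfb3 rested on shOSGEP replicate 2, where it was at 31.1 CPM per kb against 7.62 and 4.92 in replicates 1 and 3. Without that library its mean was 6.27, below Smad3 (9.73), Tgfbr2 (8.24) and Tgfbr1 (6.44). Cells of both groups thus held transcripts of both receptors, of Smad3 and of a ligand.

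The libraries of replicate 2 stood apart in several of these genes. In all tested genes the deviation of shCtr replicate 2 from the mean of shCtr replicates 1 and 3 followed the GC content of the transcript, an examination chosen after seeing the data. Its median ran from -3.15 (log2 CPM, 771 genes) below 40% GC through -1.95, -0.51, 0.66 and 1.14 in steps of 5% to 1.46 (513 genes) at 60% or more. Tgfbr1 and Skil, both with 41.0% GC, deviated by -4.87 and -2.66, further down than their class median of -1.95. Tgfb2, with 46.9% GC, deviated by -2.30, below its class median of -0.51. Tgfb3 and Smad3, with 53.0% and 53.1% GC, deviated by -0.08 and 0.09, below their class median of 0.66. Smad7, with 56.9%, deviated by -0.97, opposite in sign to its class median of 1.14. For shOSGEP replicate 2 the medians of the same GC classes lay between -1.10 and 0.25, and the deviation of Tgfb3 was 2.34, far above the median of 0.20 in its class. With offsets for GC content and transcript length the Log2FC of Tgfb3 was 1.68 (unadjusted p = 0.0329). With these offsets plus the replicate block Tgfb3 did not pass the study threshold. The part of base composition in the Tgfb3 difference was not tested.

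**Figure D4:**
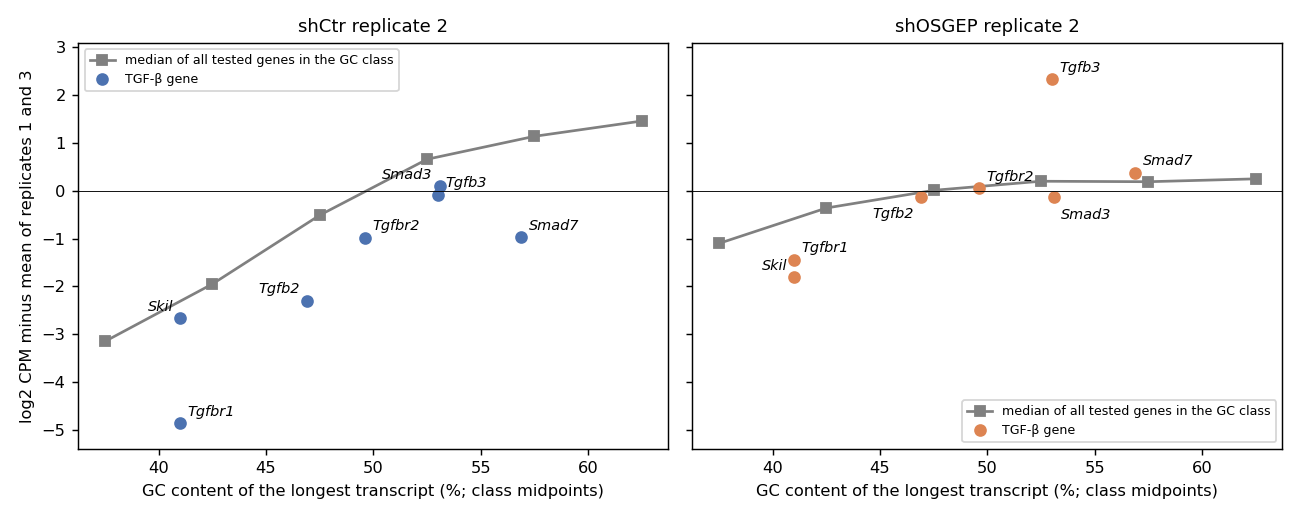
Deviation of replicate 2 from the mean of replicates 1 and 3 of its own group (log2 CPM) against the GC content of the longest transcript, for shCtr on the left and shOSGEP on the right. Coloured points are the 7 tested TGF-β genes and grey squares the medians of all tested genes in classes of GC content, the outermost classes being open-ended. In shCtr the low-GC genes Tgfbr1 (-4.87) and Skil (-2.66) lie furthest down, and in shOSGEP Tgfb3 (2.34) lies far above the grey line.

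For each tested gene the single closest pattern over the 6 libraries was sought among 10978 genes with a mean of at least 50 counts, as the smallest root mean square difference of centred log2 CPM. Tgfb3 was closest to Sh3bgr, at 0.184. Sh3bgr was at 3.53, 2.51 and 3.64 CPM in shCtr against 5.21, 22.7 and 3.99 CPM in shOSGEP, with the same high library. The closest genes were Dhx40 for Tgfb2 (0.113), Dsel for Tgfbr1 (0.0868), B4galt1 for Tgfbr2 (0.0776), Rgl1 for Smad3 (0.0425), Rpp30 for Smad7 (0.102) and Rbl1 for Skil (0.0381). These are descriptions over 6 libraries that share depth and base composition.

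Beyond the 9 genes, 126 further genes of the pathway and its superfamily were listed in 6 groups, of which 86 were tested. At the study threshold 6 of the 86 (6.98%) passed, against 2.02% of all tested genes, and edgeR called 0 at an adjusted p under 0.05. The 6 had higher values in shOSGEP, but Tagln and Col1a1 among them entered the test only through the shOSGEP libraries, so their direction was set by the filter and this count is a description. With at least 10 counts required in every library, 4 of 81 (4.94%) passed, against 1.83% of all 11376 genes then tested. The lists were chosen with earlier results of these data known, so both shares are descriptions and test no enrichment. The groups were separate with shOSGEP higher for 7 of the 86, Tagln and Col1a1 included, and with shOSGEP lower for 2. Among all tested genes 3.49% were separate with shOSGEP higher and 2.87% with shOSGEP lower. The median Log2FC of the 86 was 0.18, with 52 above 0 and 34 below. Over all tested genes the median was -0.03, and 47.3% were above 0. The 6 were Thbs1 among the activators and Timp3, Tagln, Col1a1, Col1a2 and Ccn1 among the response genes.

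The response genes were 41, of which 29 were tested. Of these, 5 (17.2%) passed the study threshold, Tagln and Col1a1 included, against 2.02% of all tested genes. A Log2FC above 0 was seen in 21 and below 0 in 8, where 47.3% of all tested genes were above 0. The median Log2FC was 0.27, against -0.03 over all tested genes. With at least 10 counts in every library 25 were tested and 3 (12.0%) passed, namely Timp3, Ccn1 and Col1a2, against 1.83% of all genes then tested. Without shOSGEP replicate 2 the median over the 29 was 0.13, against -0.01 over all tested genes. In that fit 2 genes passed, of which Tagln again owed its entry to shOSGEP, leaving Timp3. Timp3 encodes a matrix-bound inhibitor of metalloproteinases. It was at 65.2, 32.0 and 51.4 CPM in shCtr against 255, 471 and 114 CPM in shOSGEP. All 3 shOSGEP libraries were above all 3 shCtr libraries, with a Log2FC of 2.50 (SE 0.600, unadjusted p = 0.00293, adjusted p = 1.00), a 5.65-fold difference. It passed the study threshold in 19 of 19 alternative analyses, in which its Log2FC ranged from 1.66 to 2.90.

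Tagln encodes transgelin, an actin-binding protein of contractile cells. It had 0, 4 and 5 counts in shCtr and 24, 332 and 20 counts in shOSGEP, which is 0, 0.197 and 0.231 CPM against 1.12, 12.9 and 0.849 CPM. It entered the test through the shOSGEP libraries alone, and its Log2FC of 5.09 (SE 1.44, unadjusted p = 0.00734) rests on shCtr counts so low that it depends on the prior count. The Log2FC also rested on shOSGEP replicate 2, without which it was 2.77, and it ranged from 2.77 to 6.11 over 18 alternatives. Col1a1 and Col1a2 encode the chains of type I collagen. Col1a1 was as low and likewise entered through the shOSGEP libraries, at 0.127, 0.442 and 0.369 CPM in shCtr and 1.16, 2.44 and 0.721 CPM in shOSGEP, giving a Log2FC of 2.20 (SE 0.742, unadjusted p = 0.0175). Col1a2 was at 4.72, 0.934 and 3.41 CPM in shCtr against 13.4, 9.22 and 6.83 CPM in shOSGEP, giving a Log2FC of 1.70 (SE 0.667, unadjusted p = 0.0334). The groups were separate for Col1a2, as they were for 3.49% of all tested genes with shOSGEP higher. They were also separate for Tagln and Col1a1, where the filter favoured this direction. The 7 fibroblast markers summed to 2.72, 0.688 and 2.26 CPM in shCtr against 2.98, 4.18 and 1.78 CPM in shOSGEP, lowest in shCtr replicate 2 and highest in shOSGEP replicate 2. Among them Pdgfra had 0.639 and 4.07 CPM in these libraries, Col6a1 was higher in all 3 shOSGEP libraries at no more than 0.212 CPM, and Dcn and Thy1 were at 0 in every library. Their part in the collagen values was not tested.

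Ccn1 encodes a matricellular protein (CYR61). Its level was 22.5, 9.14 and 30.4 CPM in shCtr against 39.1, 97.0 and 33.5 CPM in shOSGEP, separate between groups but close to each other in replicate 3. Its Log2FC was 1.45 (SE 0.617, unadjusted p = 0.0455), with the replicate block it was 1.38 (unadjusted p = 0.104), and without shOSGEP replicate 2 it was 0.82 (unadjusted p = 0.213). Col1a1 also left the study threshold without shCtr replicate 1 (unadjusted p = 0.0633), shCtr replicate 3 (0.057) or shOSGEP replicate 2 (0.0827), and Col1a2 without shCtr replicate 3 (0.0701), shOSGEP replicate 1 (0.111) or shOSGEP replicate 2 (0.0594). Ccn1 further left it without shCtr replicate 1 (0.076) or shCtr replicate 2 (0.0754). Over all alternatives Ccn1 passed in 10 of 19, Col1a1 in 12 of 18 and Col1a2 in 14 of 19. Of the 12 response genes too low to test, Acta2 was picked out after its values were seen. Acta2, the smooth muscle actin gene, had 0, 1 and 0 counts in shCtr and 4, 228 and 4 counts in shOSGEP. Acta2, Tagln and Ccn1, picked from the 41 response genes, were highest in shOSGEP replicate 2, the library in which Tgfb3 was highest. Not all response genes were high there. Skil was at 3.29 CPM in that library against 13.2 and 10.2 CPM in shOSGEP replicates 1 and 3. A link of these genes to Tgfb3 was not tested.

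**Figure D5:**
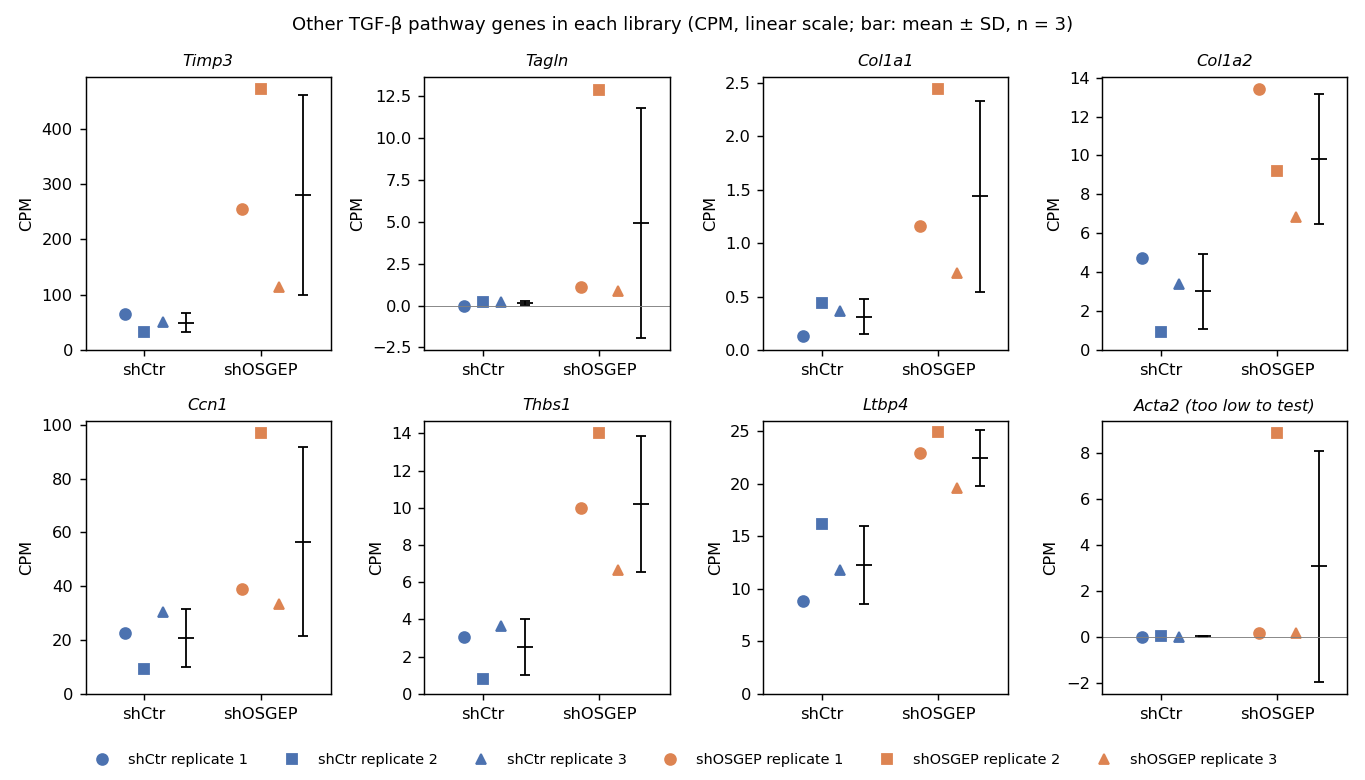
Level of 8 further pathway genes in the 6 libraries, in CPM on a linear axis. Points are libraries (circle, square and triangle for replicates 1, 2 and 3) and the black bar beside each group is the mean ± SD (n = 3), drawn below 0 where the SD exceeds the mean. The genes are those past the study threshold, Ltbp4, and Acta2, which was picked after its values were seen. All 3 shOSGEP libraries lie above the shCtr libraries in each panel, a direction shared through this choice. Plat and Bambi, whose groups were separate with shOSGEP lower, are not drawn. In all panels except Col1a2, shOSGEP replicate 2 is the highest.

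The group of latency, release and activation held 23 genes, 15 of them tested, with 1 past the study threshold and a median Log2FC of -0.06. Thbs1 encodes thrombospondin-1, an activator of latent TGF-β. It was at 3.06, 0.787 and 3.64 CPM in shCtr against 9.96, 14.0 and 6.66 CPM in shOSGEP, giving a Log2FC of 2.03 (SE 0.670, unadjusted p = 0.0157). It passed the study threshold in 18 of 19 alternatives, the exception being the fit without shOSGEP replicate 2, where the Log2FC was 1.73 and the unadjusted p 0.0533. Ltbp4, which encodes a binding protein that tethers latent TGF-β to the matrix, was at 8.84, 16.2 and 11.8 CPM in shCtr against 22.9, 24.9 and 19.6 CPM in shOSGEP. Its groups were separate, but the Log2FC of 0.87 (SE 0.434, unadjusted p = 0.0785) did not pass. With the replicate block it did, with a Log2FC of 0.91 and an unadjusted p of 0.0343, and it passed in 8 of 19 alternatives. Plat, which encodes tissue plasminogen activator, was at 10.7, 8.95 and 8.25 CPM in shCtr against 5.82, 2.75 and 6.83 CPM in shOSGEP, giving a Log2FC of -0.86 (SE 0.511, unadjusted p = 0.13). Its groups were separate with shOSGEP lower, and it passed the study threshold in 2 of 19 alternatives.

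In the remaining 4 groups no gene passed the study threshold. The other ligands and extracellular antagonists were 19 genes, of which 4 were tested and 9 had no count in any library, among them the activin and BMP genes Inhba, Inhbb, Bmp2, Bmp4, Bmp6 and Bmp7. The 4 tested all had a Log2FC above 0, with a median of 0.71 that was 0.24 without shOSGEP replicate 2. Among all tested genes 47.3% had a Log2FC above 0. Gdf15, a stress-induced member of the superfamily, was at 9.90, 21.4 and 7.75 CPM in shCtr against 12.0, 59.1 and 17.0 CPM in shOSGEP, giving a Log2FC of 1.17 (SE 0.711, unadjusted p = 0.136). Its highest library was shOSGEP replicate 2, without which the Log2FC was 0.19 (unadjusted p = 0.756). With the replicate block the Log2FC was 0.96 and the unadjusted p 0.0406, and Gdf15 passed the study threshold in 6 of 19 alternatives. Fstl1 and Fstl3, which encode follistatin-like proteins, had Log2FC of 0.83 and 0.59 (unadjusted p of 0.148 and 0.439).

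Of the 11 other receptors and co-receptors, 9 were tested, with a median Log2FC of 0.04. Their smallest unadjusted p belonged to Acvrl1, an alternative type I receptor, with a Log2FC of -0.75 (unadjusted p = 0.173). Tgfbr3, the co-receptor betaglycan that presents TGF-β2, had a Log2FC of 0.69 (unadjusted p = 0.31), and Acvr2b, an activin receptor, had a Log2FC of -0.29 (unadjusted p = 0.538). The other SMADs and positive partners were 17 genes, 16 tested, with Log2FC between -0.38 and 0.61 and a median of 0.20. Tab2, Tab1 and Map3k7, which encode the TAK1 kinase and its binding partners in the SMAD-independent arm, had Log2FC of 0.61, -0.38 and 0.47 (unadjusted p of 0.354, 0.45 and 0.485). The inhibitors and feedback genes were 15, 13 tested, with Log2FC between -0.50 and 0.45 and a median of -0.07. Tgif2, a SMAD corepressor gene, Bambi, which encodes a decoy receptor, and Fkbp1a, whose product shields the type I receptor, had Log2FC of -0.41, -0.42 and -0.50 (unadjusted p of 0.343, 0.343 and 0.346). Each of these 3, picked for the smallest unadjusted p of their list, was lower in 3 of 3 replicate numbers, as were 17.2% of all tested genes. The groups of Bambi were separate with shOSGEP lower, which was seen in 2.87% of all tested genes.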

How the data were processed

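PolyA RNA of 6 B16F10 libraries (3 infections per group) was sequenced in paired reads on a HiSeq2000. Per the methods and labels, the authors trimmed reads with TrimGalore, aligned them to GRCm38 with STAR 2.6.1d within nf-core/rnaseq and quantified genes with Salmon 1.4.0; the submitters' processing notes also name edgeR 3.14 and DESeq2 1.30. The annotation release is not given in the sources used here. The values deposited by the authors are estimated counts from Salmon, 1 row per Ensembl gene, not normalized; all are whole numbers, so rounding changed none. Salmon divides ambiguous reads by likelihood, so values of near-identical copies are uncertain.

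Groups came from the labels. Genes were kept by filterByExpr (minimum count 10, minimum total 15), scaled by TMM and tested with edgeR 4.0.16 (R 4.3.3, quasi-likelihood F-test, two-sided, no block), with Benjamini-Hochberg adjustment over 12669 genes. The SE is the Log2FC divided by the square root of F, in absolute size. Log2 CPM used a prior count of 0.5. Exon lengths, GC contents and positions came from GENCODE M21, which holds 99.9% of tested identifiers. Floors cover counting error only. What an infection shares beyond its number is not stated, so p-values measure the spread between these libraries. Scripts were tested on simulated data.

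The genes, lists and tests were chosen with earlier results of these data known. Named genes were Osgep, the 9 members, up to 3 tested genes with the smallest unadjusted p per list, and the closest pattern for each tested member. Outside this rule, Col1a2 and Ccn1 were named because they passed the study threshold, Acta2 and Itgav after their values were seen, and marker genes and genes without a count as examples. The values of 1 listed response gene are not reported here. Alternatives were DESeq2 1.42.0, limma-voom (limma 3.58.1) with sample quality weights, scaling by RLE or by upper quartile, other filters, offsets for GC content and length (splines with 5 degrees of freedom), a replicate block and leaving out libraries. Deviations from group means of same-numbered shCtr and shOSGEP libraries correlated across genes at 0.791, 0.541 and 0.186, all above 0.1, so the numbers were taken to pair the libraries, though shCtr replicate 3 correlated more with shOSGEP replicate 1 (0.461). The pairing comes from the labels' numbers and from these values.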

Additional observations from a re-analysis of the deposited data

How the results depend on the processing

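Called at an adjusted p under 0.05 were 0 of the 7 tested TGF-β genes and 0 of the 86 others by edgeR under every scaling, filter, offset and left-out library; limma-voom with quality weights and the replicate block called 2 and 18. All genes called numbered 14 with DESeq2, 3 with limma-voom and 1403 with limma-voom and the block. At the study threshold the count of the 7 was 1, and 0 to 1 over left-out libraries. It was 0 with limma-voom, with the replicate block and with offsets plus block. With limma-voom plus block it was 2, Tgfb3 with shOSGEP higher and Tgfb2 with shOSGEP lower. Of the 86, 6 passed, and 11 with offsets, 13 with offsets plus block, 16 with limma-voom plus block and 2 to 9 over left-out libraries. Response genes passing, 5 in all, were 8 without a filter, 3 with at least 10 counts in every library, 8 with limma-voom plus block and 2 to 5 over left-out libraries. All genes passing, 256, were 560 with limma-voom, 599 without a filter, 634 with offsets, 823 with offsets plus block, 1442 with limma-voom plus block and 67 to 453 over left-out libraries. The causes were not tested.

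Signs changed for Tgfb2 and Skil with the replicate block (0.13 and 0.05) and for Smad7 with limma-voom plus block (-0.10). Over left-out libraries the Log2FC ran from -0.59 to 0.22 for Tgfb2, -0.62 to 1.21 for Tgfbr1, -0.02 to 0.81 for Smad7, -0.63 to 0.45 for Skil, -0.15 to 1.56 for Fstl3, -0.64 to 0.04 for Tab1, -0.00209 to 0.86 for Map3k7 and -0.78 to 0.04 for Fkbp1a. The shift in the Tgfb1 share ran from -1.12 to 0.264 percentage points and that of the log2 ratio of Tgfbr2 to Tgfbr1 from -1.43 to 0.791. Tgfb3 and Tgfbr2 stayed above 0 and Smad3 below 0 in 19 of 19 alternatives. The block ended the pass of Tgfb3 and Ccn1 and brought Itgav, Ltbp4 and Gdf15 past the study threshold. Leaving out both libraries of a number leaves 2 per group, and the depth limits Tgfb1 and Tgfbi to single-digit or low counts in most libraries.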
